A study of Mus musculus with 6 samples.

Results

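The clock genes described here are Clock, Per1, Per2, Per3, Cry1, Cry2, Nr1d1, Nr1d2, Dbp and Tef, taken as the rows of the count table with exactly these symbols. They are 10 of 34714 gene symbols in the table, and all 10 were among the 15788 genes tested after low counts were removed. RNA was sequenced from Gas muscles (the gastrocnemius, a mostly fast-twitch calf muscle) of 3 WT mice and 3 M92KO mice, with 1 library for each mouse. The WT mice were C57BL/6 and the M92KO mice carried a global knockout of miR-92b (C57BL/6JGpt- Mir-92bem22Cd549/Gpt), so every tissue lacked the microRNA and not only muscle. All mice were 8 weeks old and untreated, housed with food and water at will and 12 h of light that began at 8 in the morning, and the M92KO mice were male by the study's methods. Those methods describe an overnight fast of all mice before muscle was taken, in a passage on what followed treatment. They do not state separately whether the untreated mice sequenced here were fasted. The clock hour at which muscles were collected was not given in the sources used here, nor whether the groups were littermates.

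The circadian clock is a loop of transcription factors that runs in almost every cell. CLOCK, paired with BMAL1, binds E-boxes and switches on the Per, Cry and Nr1d genes, whose proteins then shut the loop down. PER and CRY proteins block CLOCK and BMAL1 directly, and the nuclear receptors REV-ERBα (Nr1d1) and REV-ERBβ (Nr1d2) silence Bmal1. DBP and TEF carry the rhythm outward by binding D-boxes in other genes. In skeletal muscle the loop is known for timing the use of glucose and fat, and food, activity, glucocorticoids and temperature can reset it, often through Per1 and Per2. The transcripts oscillate over the day, so a level measured at 1 time does not separate a shift in phase from a change in amount.

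Library totals ran from 33160508 to 48209846 counts, and each M92KO library was smaller than each WT library. Mir92b itself was not analysed here, so the labels could not be checked on the targeted gene. The 7 skeletal muscle fibre markers (Acta1, Ckm, Myh4, Myh1, Myh2, Tnnt3 and Pvalb) were abundant throughout. Their summed level was 102600 to 113500 CPM (counts relative to the TMM-scaled library total) in WT and 104400 to 110200 CPM in M92KO libraries. M92KO replicate 1 stood apart in Myh1, a fast myosin gene, with 9664 CPM against 14350 to 17200 CPM in the other 5 libraries (Myh1 was singled out after its values were seen). WT replicate 3 stood apart in some stress-induced genes. Its Hspa1b level was 91.5 CPM against 3.31 to 11.2 CPM in the other 5 libraries, and its Fos level was 137 CPM against 10.3 to 34.4 CPM (Fos was singled out after its values were seen).

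Since miR-92b is the deleted gene, its mature sequences and their matches in the clock transcripts come first. A microRNA pairs with a target chiefly through its seed, bases 2 to 8 from the 5′ end, set in capitals in the RefSeq sequences (GRCm38.p6, chromosome 3, minus strand).
mmu-miR-92b-3p: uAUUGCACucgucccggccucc
mmu-miR-92b-5p: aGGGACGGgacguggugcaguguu

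In the annotated 3′-UTRs of GENCODE M21 (GRCm38), 4 of the 10 genes held a 7mer or 8mer match to the miR-92b-3p seed: Per2, Cry2, Nr1d2 and Tef. The matches searched were GTGCAATA (8mer), GTGCAAT (7mer-m8) and TGCAATA (7mer-A1). Such a match was present in 15.8% of the 13530 tested genes with an annotated 3′-UTR, and an 8mer, as in Per2 and Tef, in 3.11% of them. For miR-92b-5p the corresponding letters were CCGTCCCA, CCGTCCC and CGTCCCA. Of the 10 genes, 1 (Per1) had a 7mer or 8mer of that arm, against 7.04% of tested genes. The sites are shown with the matched bases in capitals, from 5′ to 3′ along the transcript.
Per2 8mer match to miR-92b-3p, chr1:91416067-91416074 (minus strand): accttcacccaGTGCAATAtatttgtgtga
Tef 8mer match to miR-92b-3p, chr15:81826490-81826497 (plus strand): ctgttaattaaGTGCAATAaaattttctag
Cry2 7mer-m8 match to miR-92b-3p, chr2:92405756-92405762 (minus strand): atggccacagaGTGCAATctgcagagaagc
Nr1d2 7mer-A1 match to miR-92b-3p, chr14:18204075-18204081 (minus strand): atgtatcttttTGCAATAtaaagtttgctg
Per1 8mer match to miR-92b-5p, chr11:69109582-69109589 (plus strand): attgtccacgcCCGTCCCActgaggagacg

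Per1 also held a 7mer-A1 of the 5p arm at chr11:69106067-69106073, in the 3′-UTR of 2 other transcripts, one of them marked for nonsense-mediated decay. Clock held only 2 matches of 6 bases to miR-92b-3p, and Cry2 held 1 of 6 bases to miR-92b-5p. Per3, Cry1, Nr1d1 and Dbp had no match of 6 bases or more to either arm in the annotated 3′-UTRs, which for Nr1d1 and Dbp were at most 288 and 323 bases long. The genes with a match of either arm did not share a direction in M92KO muscle. The log2 fold changes of M92KO against WT, described with their errors below, were -0.10 for Per2, 0.09 for Tef, 0.27 for Cry2, 0.03 for Nr1d2 and -0.84 for Per1. Over all tested genes with an 8mer for miR-92b-3p, 3.56% were higher in M92KO at an unadjusted edgeR p-value under 0.05, and 5.58% of the other genes with a 3′-UTR were. This is a description without a test, and the 3′-UTRs with an 8mer were longer (median of the longest per gene 2640 bases, against 1355 bases over all).

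In WT muscle, Tef and Nr1d1 were the most abundant of the 10 transcripts and Per2 the least, when counts were set against exon length. Values are CPM per kb of the gene's annotated exons, merged over its transcripts, as mean ± SD over 3 mice. Tef stood at 67.1 ± 4.88 and Nr1d1 at 65.3 ± 3.8 CPM per kb, and their libraries overlapped. Nr1d2 followed at 50.8 ± 4.42 CPM per kb, below every Nr1d1 library, and Dbp at 30.5 ± 5.66 CPM per kb lay below every Nr1d2 library. Per1 (22.1 ± 8.29 CPM per kb) overlapped Dbp, with WT libraries from 13.8 to 30.4 CPM per kb. Per3 (9.02 ± 1.46 CPM per kb) was apart from Per1 above it and from Cry1 below it. Cry1 (6.28 ± 0.475), Cry2 (6.21 ± 0.0853) and Clock (5.70 ± 0.388 CPM per kb) could not be ordered beyond their spread, and Per2 was lowest at 2.49 ± 0.632 CPM per kb. In M92KO muscle the mean of Nr1d1 (86.6 ± 16.6 CPM per kb) lay above that of Tef (71.6 ± 3.93 CPM per kb), and Dbp (48.1 ± 15.4 CPM per kb) came close to Nr1d2 (51.8 ± 0.513 CPM per kb).

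**Figure D1:**
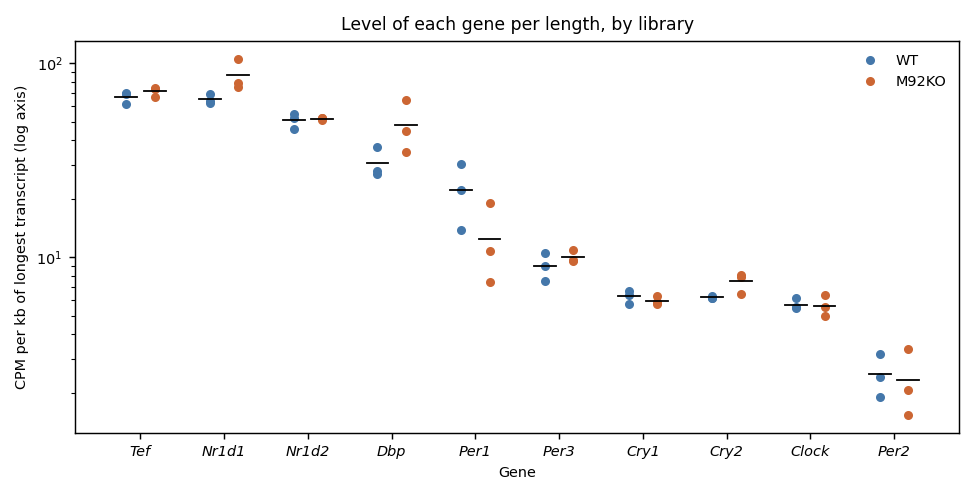
Level of each gene in CPM per kb of its merged annotated exons (vertical log axis, labelled there as longest transcript). Each library is 1 point, with black lines at the group means of 3 WT (blue) and 3 M92KO (orange) libraries. The genes are ordered by WT level, from Tef at 67.1 to Per2 at 2.49 CPM per kb.

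In the comparison of M92KO with WT muscle, no clock gene passed an adjusted p-value of 0.05 in edgeR's quasi-likelihood test. Neither did any of the 15788 genes tested (0.0%), the smallest adjusted p-value of any gene being 0.124. At an unadjusted p-value under 0.05, 1955 genes (12.4%) were counted, 863 of them higher in M92KO (5.47%) and 1092 lower (6.92%). Of the 10 clock genes, 4 were in this count: Dbp, Nr1d1 and Cry2 with higher values and Per1 with lower values. DESeq2 called 308 of 15784 genes at an adjusted p-value of 0.05 (1.95%), and Dbp was the single clock gene among them. The 3 M92KO libraries lay wholly above or below the 3 WT libraries for 2898 genes (18.4%), and wholly above them for 1385 (8.77%). Among the 10 clock genes this held for 2, Nr1d1 and Cry2, both above. That is close to the 18.4% of all genes for either direction, while the share for above alone was 8.77%. Neither comparison was tested. The median log2 fold change of the 10 genes was 0.06, beside a median of 0.00 over all genes tested. There were 6 positive and 4 negative estimates.

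**Figure D2:**
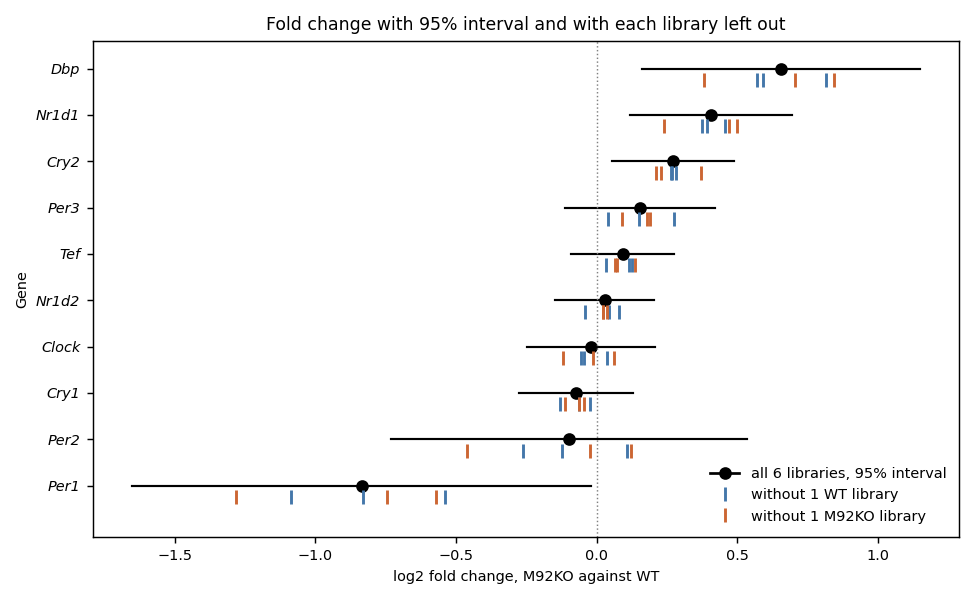
The log2 fold change of M92KO against WT for each gene (horizontal axis), with black points and lines for the estimate and its 95% interval from all 6 libraries, and ticks for the estimates with 1 WT (blue) or 1 M92KO (orange) library left out. The intervals of Dbp, Nr1d1 and Cry2 lie above 0 and that of Per1 below 0, and the ticks of Per1 run from -1.28 to -0.54.

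Clock encodes the DNA-binding activator that pairs with BMAL1 (chr5:76209868-76304792, minus strand, GRCm38). Its level was 61.0, 54.7 and 54.0 CPM in WT replicates 1 to 3 and 49.2, 63.0 and 55.1 CPM in M92KO replicates 1 to 3. The highest and the lowest library were both M92KO, so the groups overlapped fully. The log2 fold change was -0.02 (SE 0.0995, 95% interval -0.25 to 0.21, edgeR adjusted p = 0.958). Bmal1 (listed as Arntl), its partner, stood at 33.5 ± 3.03 CPM in WT and 31.7 ± 5.30 CPM in M92KO muscle (log2 fold change -0.08, edgeR adjusted p = 0.844). Npas2, which can stand in for CLOCK, had 4.88 ± 1.13 CPM in WT and 3.74 ± 0.112 CPM in M92KO muscle, a log2 fold change of -0.39 (edgeR adjusted p = 0.435) with overlapping groups.

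The Period proteins carry the negative limb of the loop, and the estimates of their 3 genes ran from -0.84 (Per1) to 0.15 (Per3). Per1 (chr11:69095217-69109960, plus strand) had 77.5, 125 and 171 CPM in the WT libraries and 41.8, 60.7 and 107 CPM in the M92KO libraries. M92KO replicates 1 and 2 were below every WT library, whereas M92KO replicate 3 lay above WT replicate 1. The means were 125 ± 46.7 CPM in WT and 69.7 ± 33.4 CPM in M92KO muscle (SD, n = 3 each). This is 0.56 of the WT level, a log2 fold change of -0.84 (SE 0.357, 95% interval -1.65 to -0.02, edgeR adjusted p = 0.392, exact permutation p = 0.2). Within both groups the highest library exceeded the lowest, by 2.20-fold in WT and 2.55-fold in M92KO muscle. Without WT replicate 3, the library with high Hspa1b and Fos, the log2 fold change was -0.54, and without M92KO replicate 3 it was -1.28. Per1 kept an unadjusted p-value under 0.05 in 2 of the 6 fits with 1 library left out.

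Per2 (chr1:91415982-91459324, minus strand), the scarcest of the set, had 11.1, 14.1 and 18.4 CPM in WT and 12.1, 8.98 and 19.5 CPM in M92KO libraries. M92KO replicate 3 was the highest and M92KO replicate 2 the lowest library. The log2 fold change was -0.10 with a 95% interval from -0.73 to 0.53 (edgeR adjusted p = 0.925), so a change of either sign lies within the spread. Per3 (chr4:151003652-151044665, minus strand) had 45.5, 62.9 and 53.9 CPM in WT and 65.3, 57.05 and 58.2 CPM in M92KO libraries. WT replicate 1 was lowest and M92KO replicate 1 highest, with WT replicate 2 among the M92KO values. Its log2 fold change was 0.15 (95% interval -0.11 to 0.42, edgeR adjusted p = 0.654). It was 0.04 without WT replicate 1, and 0.28 without WT replicate 2, the single fit in which Per3 had an unadjusted p-value under 0.05.

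The Cryptochromes are the partners of PER in blocking CLOCK and BMAL1. Cry2 (chr2:92403646-92434043, minus strand) had 26.7, 27.4 and 26.8 CPM in WT and 28.0, 35.2 and 34.4 CPM in M92KO libraries. Every M92KO library was above every WT library, although M92KO replicate 1 exceeded the highest WT library only slightly. The WT libraries were nearly identical, with a coefficient of variation of 1.37%, against 12.3% in M92KO muscle. The fold was 1.21, a log2 fold change of 0.27 (SE 0.0951, 95% interval 0.06 to 0.49, edgeR adjusted p = 0.318, exact permutation p = 0.1, the smallest that 3 against 3 allows). Without M92KO replicate 1 it was 0.37 with an edgeR adjusted p of 0.0273, in a fit where 401 of all genes passed an adjusted p of 0.05. Over the 6 fits with 1 library left out, the edgeR adjusted p of Cry2 ranged from 0.0273 to 0.641. Cry1 (chr10:85131700-85185064, minus strand) had 20.3, 17.4 and 19.3 CPM in WT and 17.4, 17.8 and 19.0 CPM in M92KO libraries. These overlapped, with a log2 fold change of -0.07 (95% interval -0.28 to 0.13, edgeR adjusted p = 0.792).

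Nr1d1 encodes REV-ERBα, a heme-binding repressor (chr11:98767932-98775333, minus strand). It had 173, 189 and 170 CPM in WT and 288, 214.5 and 205 CPM in M92KO libraries. All M92KO libraries were above all WT libraries, and M92KO replicate 1 was far above the rest. The means were 178 ± 10.3 CPM in WT and 236 ± 45.3 CPM in M92KO muscle, a fold of 1.33 and a log2 fold change of 0.41 (SE 0.126, 95% interval 0.12 to 0.70, edgeR adjusted p = 0.267, exact permutation p = 0.1). Without M92KO replicate 1 the log2 fold change was 0.24, and the unadjusted p-value was under 0.05 in all 6 fits with 1 library left out. With the study's own limma steps on counts the unadjusted limma p-value was 0.107. The closely related Nr1d2 (chr14:18204054-18239127, minus strand) had 214, 254 and 243 CPM in WT and 243, 242.5 and 239 CPM in M92KO libraries. The M92KO libraries lay inside the WT range, with a log2 fold change of 0.03 (95% interval -0.15 to 0.21, edgeR adjusted p = 0.924).

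Dbp and Tef encode PAR bZIP activators, the output arm of the loop. Dbp (chr7:45705088-45710203, plus strand) had 49.1, 68.0 and 51.1 CPM in WT and 119, 63.7 and 82.2 CPM in M92KO libraries. M92KO replicate 1 was the highest and M92KO replicate 2 lay below WT replicate 2, so the groups overlapped. With means of 56.1 ± 10.4 CPM in WT and 88.4 ± 28.2 CPM in M92KO muscle, Dbp had the largest positive estimate of the 10 genes, a fold of 1.58 and a log2 fold change of 0.66 (SE 0.217, 95% interval 0.16 to 1.15, edgeR adjusted p = 0.291, exact permutation p = 0.2). DESeq2 gave Dbp an adjusted p of 0.0476, whereas the adjusted p over all alternatives with 6 libraries ranged from 0.0476 to 0.878. Without M92KO replicate 1 the log2 fold change was 0.38. Tef (chr15:81802421-81826863, plus strand) had 290, 327 and 332 CPM in WT and 345, 350 and 316 CPM in M92KO libraries, which overlapped. Its log2 fold change was 0.09 (95% interval -0.09 to 0.27, edgeR adjusted p = 0.700).

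**Figure D3:**
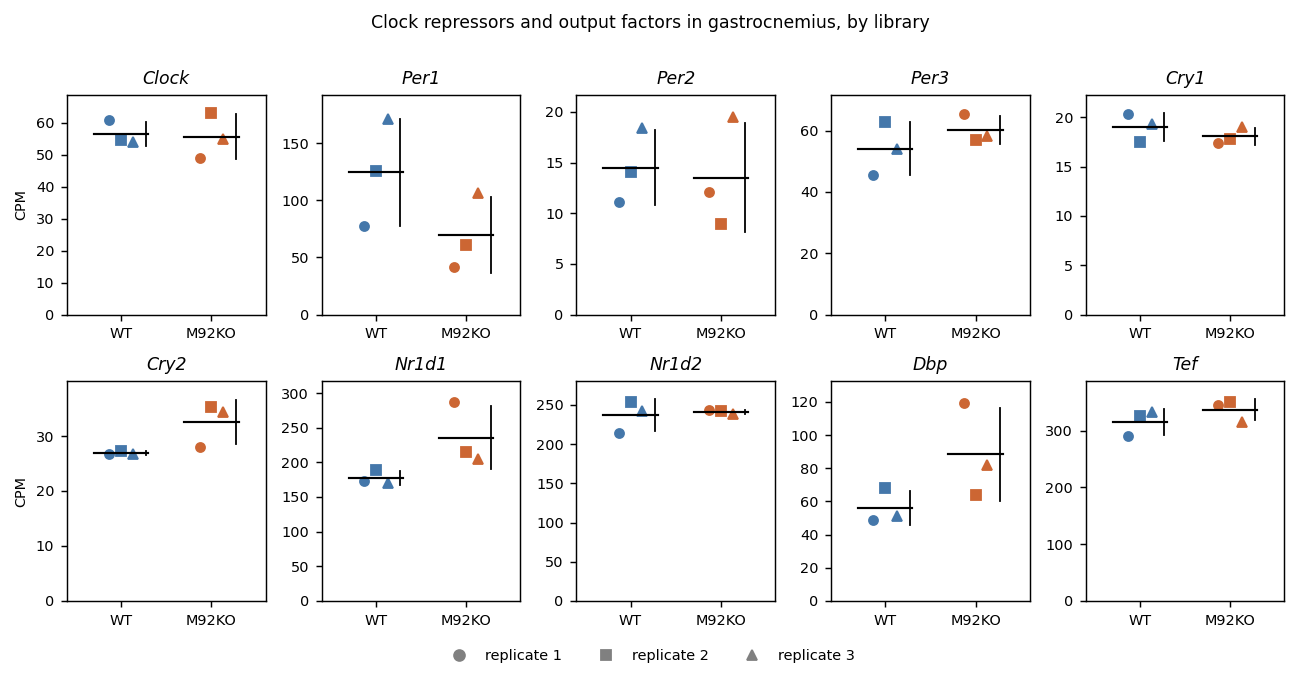
CPM of each gene (vertical axes from 0) in the 3 WT (blue) and 3 M92KO (orange) libraries, with the symbol giving the replicate number, the horizontal line the mean and the vertical line 1 SD on each side. Nr1d1 and Cry2 are the genes whose groups do not overlap, and M92KO replicate 1 is highest for Dbp (119 CPM) and Nr1d1 (288 CPM).

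Reads of some genes may come from a neighbour on the opposite strand, since it was not stated whether counting used strand. Exons of Dbp overlapped those of Sphk2 over 539 bases (29.3% of the Dbp exons), and Sphk2 itself had 23.1 ± 2.22 CPM in WT and 25.6 ± 1.12 CPM in M92KO muscle (log2 fold change 0.15). Nr1d1 overlapped Thra over 263 bases (9.67%), and Thra had 104 ± 2.43 CPM in WT and 100.3 ± 4.20 CPM in M92KO muscle (log2 fold change -0.05). Cry2 and Tef overlapped D930015M05Rik and Gm17597 over 149 and 193 bases (3.43% and 4.10%), and both partners had a mean under 1 CPM. The share of these reads in the clock genes' counts was not tested.

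Ratios of genes within a library do not depend on library size, and 9 of them were compared. The ratio of Per1 to Per2 counts was 7.0, 8.91 and 9.28 in WT and 3.45, 6.76 and 5.47 in M92KO libraries. Every M92KO ratio was below every WT ratio, with a log2 difference of -0.73 that became -0.46 without M92KO replicate 1. Cry1 to Cry2 was 0.761, 0.638 and 0.720 in WT and 0.622, 0.505 and 0.553 in M92KO libraries, again all lower, with a log2 difference of -0.34. Nr1d1 to Nr1d2 was 0.811, 0.747 and 0.700 in WT and 1.18, 0.884 and 0.859 in M92KO libraries, all higher, with a log2 difference of 0.36 that became 0.21 without M92KO replicate 1. These 3 pairs of related genes reached the smallest exact permutation p of 0.1, or 0.3 after adjustment over the 9 ratios. Cry2 and Nr1d1 did not overlap between groups on their own, so the ratios that hold them are not separate results. The share of other gene pairs without overlap was not computed. Dbp to Tef was 0.169, 0.208 and 0.154 in WT and 0.345, 0.182 and 0.260 in M92KO libraries, with M92KO replicate 2 inside the WT range (log2 difference 0.53, or 0.31 without M92KO replicate 1, exact permutation p = 0.2). Set against Bmal1, the ratios of Dbp (log2 difference 0.71), Nr1d1 (0.48), Per2 (-0.06) and Clock (0.06) all overlapped between the groups, as did Per3 to Per2 (0.31). Without 1 library, Dbp to Bmal1 ranged from 0.45 to 1.05, Nr1d1 to Bmal1 from 0.31 (both lowest without M92KO replicate 1) to 0.67, and Per3 to Per2 from 0.09 (without M92KO replicate 2) to 0.63. Per2 to Bmal1 ranged from -0.47 (without M92KO replicate 3) to 0.33 (without M92KO replicate 2) and Clock to Bmal1 from -0.04 to 0.13, so both turned sign.

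**Figure D4:**
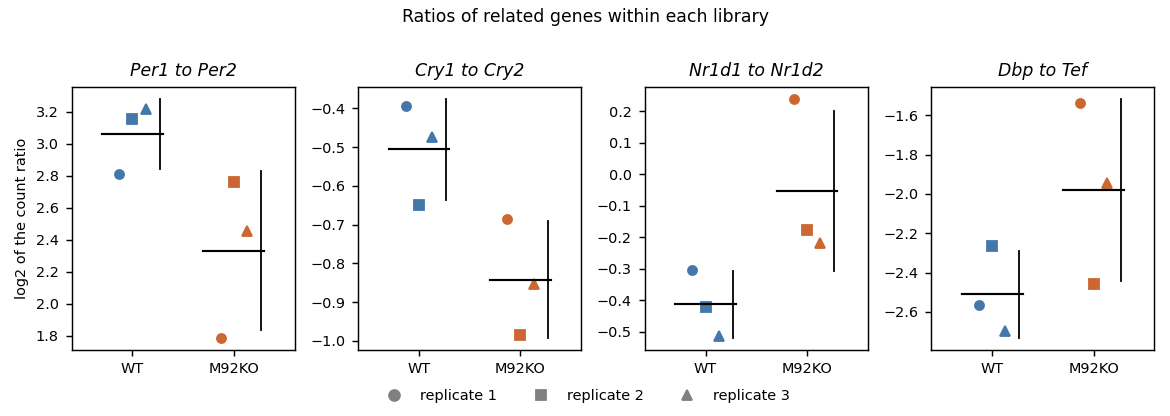
log2 of the count ratio of related genes within each library (vertical axes, scaled per panel), with the symbol giving the replicate number, the horizontal line the mean and the vertical line 1 SD on each side. The groups do not overlap for Per1 to Per2, Cry1 to Cry2 and Nr1d1 to Nr1d2, and overlap for Dbp to Tef.

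Promoter sequences are shown for Per1, the gene with lower values, and for Nr1d1 and Cry2, whose groups did not overlap. RefSeq windows (GRCm38.p6) from 250 bases before to 50 bases after a start site were found for 9 of the 10 genes, 13 windows in all, and Per2 had no entry. Motifs searched on both strands were the E-box CACGTG, its variant CACGTT, the D-boxes TTATGTAA and TTACGTAA, the core of the REV-ERB and ROR element AGGTCA, and TGACG, a core of the cAMP response element TGACGTCA that lies within it. Capitals mark every match, and for Per1 the first of 2 windows is shown.
Per1 promoter, chr11:69098699-69098998 (plus strand): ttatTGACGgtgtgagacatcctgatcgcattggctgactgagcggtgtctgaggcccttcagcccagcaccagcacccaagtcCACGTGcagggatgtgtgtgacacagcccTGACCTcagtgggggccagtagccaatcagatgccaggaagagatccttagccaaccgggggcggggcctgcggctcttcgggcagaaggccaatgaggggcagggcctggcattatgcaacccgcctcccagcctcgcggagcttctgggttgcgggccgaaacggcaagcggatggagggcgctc
Nr1d1 promoter, chr11:98775328-98775627 (minus strand): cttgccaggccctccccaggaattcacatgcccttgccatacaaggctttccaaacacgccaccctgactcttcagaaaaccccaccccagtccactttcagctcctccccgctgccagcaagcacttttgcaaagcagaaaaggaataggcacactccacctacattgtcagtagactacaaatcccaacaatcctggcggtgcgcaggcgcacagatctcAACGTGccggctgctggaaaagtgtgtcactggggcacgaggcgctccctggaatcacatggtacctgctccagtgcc
Cry2 promoter, chr2:92434020-92434319 (minus strand): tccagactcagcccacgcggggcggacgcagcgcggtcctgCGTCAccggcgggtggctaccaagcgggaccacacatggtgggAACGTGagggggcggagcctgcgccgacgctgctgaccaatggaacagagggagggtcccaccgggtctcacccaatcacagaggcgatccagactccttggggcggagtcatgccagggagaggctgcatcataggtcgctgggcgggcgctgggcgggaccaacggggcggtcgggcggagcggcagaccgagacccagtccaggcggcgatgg

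The first Per1 window held an E-box 166 bases before the start, an AGGTCA core and a TGACG core, whereas the second (chr11:69099902-69100201) held TGACG alone. Nr1d1 held CACGTT 28 bases before the start, and Cry2 held CACGTT and TGACG. An E-box was present in 4 of the 13 windows (in Per1, Cry1 and both windows of Tef) and in 7.15% of all 32851 promoter windows. CACGTT was present in 3 of the 13, against 4.68%, and AGGTCA in 3, against 16.3%. TGACG was present in 4, against 20.8% of all windows, and the full TGACGTCA in none, against 1.79%. TTATGTAA was present in the Per3 window alone, where it occurred at 2 positions, against 0.938% of all windows, and TTACGTAA in none, against 0.119%. The Dbp window held none of the motifs, which says only that these letters are not in this window.

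Of 32 other clock genes, 30 were tested, and 3 had an unadjusted p-value under 0.05, 1 higher and 2 lower. This stands beside 12.4% of all genes tested (5.47% higher and 6.92% lower), so the count was not above that share. Bhlhe41, a repressor of E-box genes, had 75.6 ± 6.75 CPM in WT and 89.4 ± 6.53 CPM in M92KO muscle (log2 fold change 0.24, edgeR adjusted p = 0.336), and Gm43909 on the opposite strand overlapped 13.7% of its exons. Gpcpd1, a glycerophosphodiesterase listed with the clock outputs, had 545 ± 54.5 CPM in WT and 448 ± 57.5 CPM in M92KO muscle (log2 fold change -0.28, edgeR adjusted p = 0.366). The median of the 30 genes was -0.01, with 14 positive and 16 negative estimates. Among those that did not reach that p-value, the log2 fold change was 0.23 for Nampt, an enzyme of NAD synthesis, 0.21 for Tcap, a protein of the sarcomere, -0.23 for Sirt1, an NAD-dependent deacetylase, and -0.57 for Nfil3, a repressor at D-boxes. Nfil3 was at 54.7 CPM in WT replicate 3 and at 19.7 to 29.1 CPM in the other 5 libraries. Hlf, the remaining PAR bZIP factor (-0.15), Rora (0.09) and Ciart (0.05) had overlapping groups.

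Genes that respond to clock-resetting cues were set beside Per1, and their part in its values was not tested. For cAMP and muscle activity, 4 of 8 genes had lower values at an unadjusted p-value under 0.05, beside 6.92% of all genes tested, and none had higher, beside 5.47%, with a median log2 fold change of -0.98. Their summed level was 347, 748 and 1463 CPM in WT and 402, 457 and 449 CPM in M92KO libraries. WT replicate 1 was thus below every M92KO library, and WT replicate 3 was the highest. Nr4a3, an activity-induced nuclear receptor, had 12.6, 25.4 and 32.98 CPM in WT and 4.46, 8.22 and 13.2 CPM in M92KO libraries. Like Per1, Nr4a3 was lowest in replicate 1 and highest in replicate 3 of each group. Every gene of this list had that order in WT libraries, but in M92KO libraries only Nr4a3 and Sik1 did. In M92KO libraries, Fos, Egr1 and Atf3 were highest in replicate 2 and Junb in replicate 1. Nr4a1 and Crem were lowest in M92KO replicate 2. The replicate numbers do not pair mice across the groups. Crem, a cAMP-responsive factor, had 16.3 ± 0.821 CPM in WT and 13.3 ± 1.17 CPM in M92KO muscle, with all M92KO libraries lower.

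Whether food was withheld from these untreated mice before muscles were taken was not stated separately, as given above. For the fasting cue, 6 of 8 genes had lower values and none had higher, beside the same 6.92% and 5.47% of all genes, with a median of -0.98 and summed levels of 2002 to 3285 CPM in WT and 1257 to 1831 CPM in M92KO libraries, which did not overlap. Pdk4, which restrains glucose oxidation, had 864, 1775 and 1251 CPM in WT and 754, 481 and 435 CPM in M92KO libraries, and Cpt1a, which admits fatty acids to mitochondria, had 26.2 ± 4.93 and 17.6 ± 1.79 CPM. Among glucocorticoid-responsive genes, 1 of 8 was higher (Zbtb16, log2 fold change 0.28) and 2 were lower, including the cell cycle inhibitor Cdkn1a at -0.82. Among temperature-responsive genes, 1 of 7 was higher and 3 were lower, among them the chaperone genes Dnajb1 (-1.28) and Hspa1b (-2.51). Hspa1b shares nearly all its sequence with Hspa1a, so the split of reads between them is uncertain. All these counts use the unadjusted p-value and stand beside the same shares of all genes, and none of the cue genes passed an adjusted p-value of 0.05 in edgeR.

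**Figure D5:**
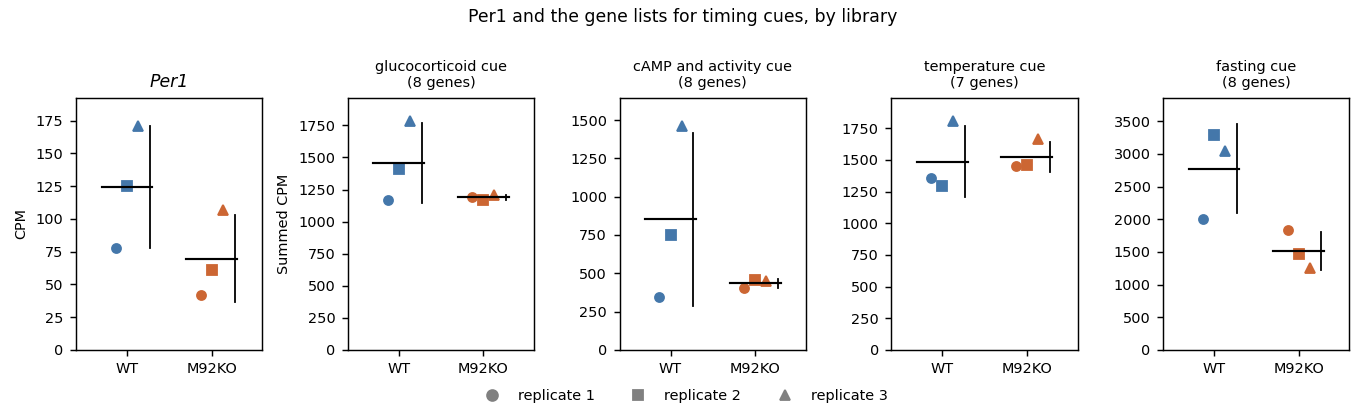
CPM of Per1 and summed CPM of the genes in each cue list (vertical axes from 0) in the 3 WT (blue) and 3 M92KO (orange) libraries, with the symbol giving the replicate number, the horizontal line the mean and the vertical line 1 SD on each side. The summed fasting genes do not overlap between groups (2002 to 3285 and 1257 to 1831 CPM), and WT replicate 3 is highest in the other panels.

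No marker of other cells passed an adjusted p-value of 0.05 in edgeR, and the counts below use the unadjusted one, which 12.4% of all genes tested reached. In bulk muscle fewer cells of a type and less RNA per cell cannot be told apart. Of 6 fibroblast markers, 3 had lower values at an unadjusted p-value under 0.05, with summed levels of 1709 to 2270 CPM in WT and 1151 to 1597 CPM in M92KO libraries. Of 4 Schwann cell markers, 3 had lower values (120 to 163 and 119 to 123 CPM), and of 5 leukocyte markers 1 had (33.6 to 35.6 and 23.2 to 34.6 CPM). Pax7, 1 of 2 satellite cell markers, had higher values (the 2 summed were at 7.32 to 9.61 and 10.3 to 12.4 CPM). So did Myh2, 1 of the 7 skeletal muscle fibre markers. None of the tested endothelial (5), slow fibre (4), fat (5) and red cell (5) markers reached that p-value. Endothelial markers summed to 738 to 817 CPM in WT and 645 to 840 CPM in M92KO libraries, and slow fibre markers to 12.2 to 25.4 and 11.1 to 17.5 CPM. Fat markers were at 4.19 to 11.7 and 7.46 to 21.4 CPM, with Lep at 0 counts in 1 library, and red cell markers at 74.0 to 223 and 143 to 336 CPM. M92KO replicate 1 had the lowest fibroblast, leukocyte and endothelial sums (1151, 23.2 and 645 CPM). The part of these cells in the clock genes' values was not tested.

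WT replicate 1 was the lowest library for 5 of the 10 clock genes (Per3, Cry2, Nr1d2, Dbp and Tef), but the highest for Cry1. Each gene's log2 CPM was standardized over the libraries, and the mean pattern of Per1, Per2, Per3, Nr1d1, Nr1d2, Dbp and Tef was taken as a reference. Of 13318 other genes with a mean of at least 1 CPM, the 10 nearest to it by mean absolute difference were Cops7a (0.255 SD), Gm26908, Pctp, Hcls1, Dipk1a, Scn3a, Lztfl1, Gars, H2-Q6 and Gm39271 (0.352 SD), beside a median of 0.906 SD over all genes compared. The 7 clock genes that made the reference did not share one pattern. Their own distances from it ran from 0.381 SD (Per3) to 0.872 SD (Per1), with Per2 at 0.793 SD. The 10 nearest genes thus lay near an average and not near each clock gene.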

How the data were processed

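Gas muscle RNA of 3 WT and 3 M92KO mice was measured with a SMARTer mRNA-Seq kit. The authors deposited unnormalized counts per gene symbol, 1 column per mouse, and their processing notes name GRCm38 (mm10). The aligner, counting program and strandedness were not given in the sources used here. The counts were fitted with edgeR 4.0.16 (R 4.3.3): filterByExpr (minimum count 10, total 15), TMM, glmQLFit and glmQLFTest for M92KO against WT, and Benjamini-Hochberg adjustment over 15788 genes. CPM values use TMM library sizes. DESeq2 1.42.0, limma 3.58.1 after the study's supplementary steps, other normalizations, filters and offsets, thinning, and each library left out were alternatives. Exact permutation tests were two-sided, with a smallest p of 0.1. Precision is set by 3 mice per group and the p-values measure the spread between these mice. Library totals were 33160508 to 48209846 counts, so a floor of 3 counts was 0.0629 to 0.0916 CPM, which covers counting error only. Positions, transcripts and 3′-UTRs came from GENCODE M21 (25731 symbols matched directly, 433 by synonym, 8550 not). The members and lists were chosen with earlier results of these data known. Named genes were all 10 clock genes, the 8 smallest p-values and 7 fixed genes of the other clock lists, up to 2 genes per cue list, and the 10 nearest patterns. Of these, 1 gene of the other clock lists is counted but not reported here.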

Additional observations from a re-analysis of the deposited data

How the results depend on the processing

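With 6 libraries, the number of genes at an adjusted p-value under 0.05 was 0 in edgeR, 308 in DESeq2, 6 without a low-count filter, and 42 and 8 with the study's limma steps on counts and on CPM. Without 1 library it ranged from 0 to 401, the highest without M92KO replicate 1 and 5 without WT replicate 1. The number at an unadjusted p-value under 0.05 ranged from 1222 (without WT replicate 2, and 1272 without WT replicate 3) to 2984 (without M92KO replicate 1). Clock genes at that p-value numbered 4 in edgeR, beside 1955 of all genes. With the limma steps, run on all 34714 symbols, 1 clock gene remained on counts (beside 2287 of all genes) and 1 on CPM (beside 2360). This was Cry2 in both, and on counts the unadjusted limma p-value was 0.107 for Nr1d1 and 0.105 for Dbp. Without 1 library the clock genes numbered 1 to 4, with 1 left without WT replicate 3. There were 2 without WT replicate 1 (beside 1600 of all genes) and 2 without M92KO replicate 2 (beside 1691). The cause of these differences was not tested. Dbp (log2 fold change 0.66 with DESeq2, adjusted p = 0.0476) and Cry2 (0.37 without M92KO replicate 1, edgeR adjusted p = 0.0273) passed an adjusted p-value of 0.05 in those fits alone. Signs turned only for Clock (0.02 with GC and length offsets, -0.118 to 0.062 without 1 library), Per2 (-0.46 to 0.12 without 1 library) and Nr1d2 (-0.041 to 0.08 without 1 library). Per1 was negative, and Dbp, Nr1d1 and Cry2 positive, in every fit run.

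The replicate numbers were not treated as pairs. Deviations of same-numbered samples from their group means correlated at 0.0806, 0.0376 and 0.0151 over 15788 genes, and WT replicate 3 correlated best with M92KO replicate 2. With the replicate number as a block, 2 genes had an edgeR adjusted p-value under 0.05 and 1691 an unadjusted one, and Per1 was at -0.87 (adjusted p = 0.104). With the block and the GC and length offsets, 2 genes passed and Clock was at 0.021. The block changed no call among the clock genes, but it moved Per1. The unadjusted edgeR p-value of Per1 was 0.0455 without the block and 3.97e-05 with it. With the block and the offsets it was 4.58e-05 (edgeR adjusted p = 0.0943).

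With 3 mice a group, the 95% intervals were widest for Per1 (-1.65 to -0.02) and Per2 (-0.73 to 0.53), while counts were not limiting for any of the 10 (lowest count 294).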
